A study of Homo sapiens with 40 samples.

Results

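The locus described here is the stretch of hg38 chromosome 11 from 1900000 to 2300000 that holds INS, IGF2, TH and H19. Every deposited H3K27ac peak, CTCF peak, listed enhancer and listed Rb region that overlapped it by at least 1 bp was taken, whatever its change. This gave 57 regions of 133343 in the series: 20 of 51489 H3K27ac peaks, 23 of 51457 CTCF peaks, 6 of 14886 enhancers of non-senescent cells, 6 of 13076 enhancers of senescent cells and 2 of 2435 Rb regions. Peaks are numbered here in order along the chromosome, from MRPL23 toward ASCL2.

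The libraries came from EndoC-βH3 cells, a single human beta-cell line made from fetal pancreas with hTERT and SV40 Large T, in which the immortalizing genes can be cut out by a tamoxifen-activated recombinase. Cells given 4-hydroxytamoxifen and followed for 3 weeks formed the senescent state, and cells without it the non-senescent state. All libraries were labelled WT, and none carried the deletion for which the study designed a pair of guides. ChIP-seq for H3K27ac and for CTCF had 3 libraries in each state, ChIP-seq for H3K4me1 and for Rb had 2, and with an input for each the series held 40. Nothing in the labels says whether replicates were separate cultures, so p-values measure the spread between these libraries, which may be technical. The 2 states differ in tamoxifen treatment and in the presence of the immortalizing genes as well as in senescence, and these cannot be told apart.

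H3K27ac is an acetyl mark on histone H3 found at active promoters and enhancers. CTCF is a zinc-finger protein that binds a directional DNA motif and, with cohesin, holds the ends of chromatin loops. INS encodes proinsulin, the main product of beta cells, and IGF2 a fetal growth factor. TH encodes tyrosine hydroxylase, the rate-limiting enzyme of catecholamine synthesis, and H19 a long non-coding RNA. IGF2 and H19 are imprinted: CTCF binds the unmethylated maternal control region upstream of H19 and keeps the enhancers beyond H19 from reaching IGF2, while methylation keeps CTCF off the paternal copy. INS, IGF2, TH and H19 are all transcribed from the minus strand, so for INS the direction toward IGF2 and H19 is downstream and TH lies upstream.

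The sequences that anchor the locus are given first, read from hg38. A CTCF peak between INS and the canonical IGF2 start site (CTCF peak 14, chr11:2156153-2157215, in introns of IGF2 and INS-IGF2) held 1 exact match to the CTCF core motif CCNNNAGNNGGC, 44 bp from the peak centre, on the minus strand. It is printed with 9 bases on each side and the core in capitals.
INS-IGF2 CTCF site (chr11:2156633-2156644, minus strand): cgggtgcgaCCAGCAGATGGCatcagagcc
The guides that the study designed to remove this site matched the genome once each, and they are shown with the adjacent PAM in capitals.
Guide 1 (chr11:2156185-2156204, plus strand): ctgtgattctaggggctcgcAGG
Guide 2 (chr11:2157008-2157027, plus strand): aggcgccagttatccatgccAGG
The predicted cuts lie 823 bp apart, with the core motif 431 bp from the first and 380 bp from the second. That stretch covers 77.4% of the peak. The motif ends 4565 bp from the INS start site.

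The H19 control region lay under a single CTCF peak of 5656 bp (CTCF peak 7, chr11:1998051-2003706, 209 bp upstream of the H19 start site with the most transcripts, over exons and introns of longer H19 transcripts). It held 5 matches to the CTCF motif of imprinting control regions, CCGCGNGGNGGCAG, all on the minus strand and between 2126 and 5177 bp upstream of that start site. They are printed to show how alike the repeated sites are, with the motif in capitals.
Match 1 (chr11:1999968-1999981): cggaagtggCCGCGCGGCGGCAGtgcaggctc
Match 2 (chr11:2000780-2000793): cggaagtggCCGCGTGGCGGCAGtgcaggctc
Match 3 (chr11:2002213-2002226): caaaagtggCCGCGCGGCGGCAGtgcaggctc
Match 4 (chr11:2002614-2002627): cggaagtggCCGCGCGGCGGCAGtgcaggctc
Match 5 (chr11:2003019-2003032): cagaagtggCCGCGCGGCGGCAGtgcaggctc
Over the 32 bases printed, match 4 was identical to match 1, and the others shared 30 or 31 bases with it. Of all CTCF peaks, 38 held a match to this motif (0.0738%, against 0.0136% of regions shifted by 10 kb). In 37 of the 38 there was 1 match, so no other CTCF peak of the series held more than 1.

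The INS promoter (RefSeq, GRCh38.p14, chr11:2161160-2161459, minus strand) is shown from 250 bases before to 50 bases after the start site. It lies inside H3K27ac peak 11 and is 63.0% GC. Capitals mark TAAT, the core bound by homeodomain factors such as PDX1, CATCTG, an E-box of the kind bound by NEUROD1, and GGAAAT.
INS promoter: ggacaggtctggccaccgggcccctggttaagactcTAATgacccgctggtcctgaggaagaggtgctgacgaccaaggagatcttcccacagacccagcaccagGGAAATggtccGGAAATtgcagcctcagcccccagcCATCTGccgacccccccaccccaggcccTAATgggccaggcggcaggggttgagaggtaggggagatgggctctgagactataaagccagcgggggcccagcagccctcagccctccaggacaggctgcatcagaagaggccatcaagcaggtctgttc
Both strands were searched. TAAT was found at -214 and -81 from the start site, CATCTG at -109, and GGAAAT at -145 and -134. Of 35116 promoters of the same length, 50.2% held TAAT, 14.7% CATCTG and 17.6% GGAAAT, so a match alone does not show that a site is bound. Binding of these factors was not measured.

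At an adjusted p under 0.05 and any fold change, H3K27ac was higher in senescent cells at 11 of 20 peaks of the locus. The rise was less than 1.5-fold at the INS, IGF2 and H19 start sites and 2.01-fold upstream of TH. With the thresholds of the study, an adjusted p under 0.05 together with a fold change of more than 1.5, 3 of the 20 H3K27ac peaks were gained and 1 was lost. Over all peaks 9.47% were gained and 13.1% were lost (22.6% changed). Without the fold threshold, 11 peaks were higher and 1 was lower at an adjusted p under 0.05, where 18.9% and 20.3% of all peaks were. Locus peaks had higher mean counts (median 275 against 119) and smaller standard errors (median 0.13 against 0.19), so they pass such a threshold more easily. Centred by mean count, peaks 5 and 7 no longer passed (adjusted p = 0.0550 each). Centred on peaks within 1 Mb, peaks 5 (0.341), 7 (0.367) and 20 (0.0515) did not pass. The median log2 fold change, senescent over non-senescent, was 0.24 at the locus and 0.01 over all peaks, and 14 of the 20 values were above 0. The locus is GC-rich (median 62.5% GC per H3K27ac peak, 45.2% over all peaks). Removing the trend of the fold change with GC content over all peaks moved the median to 0.34, with 15 values above 0. The 81 peaks in the window and within 1 Mb of it, the 20 of the locus among them, had a median of 0.14.

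**Figure D1:**
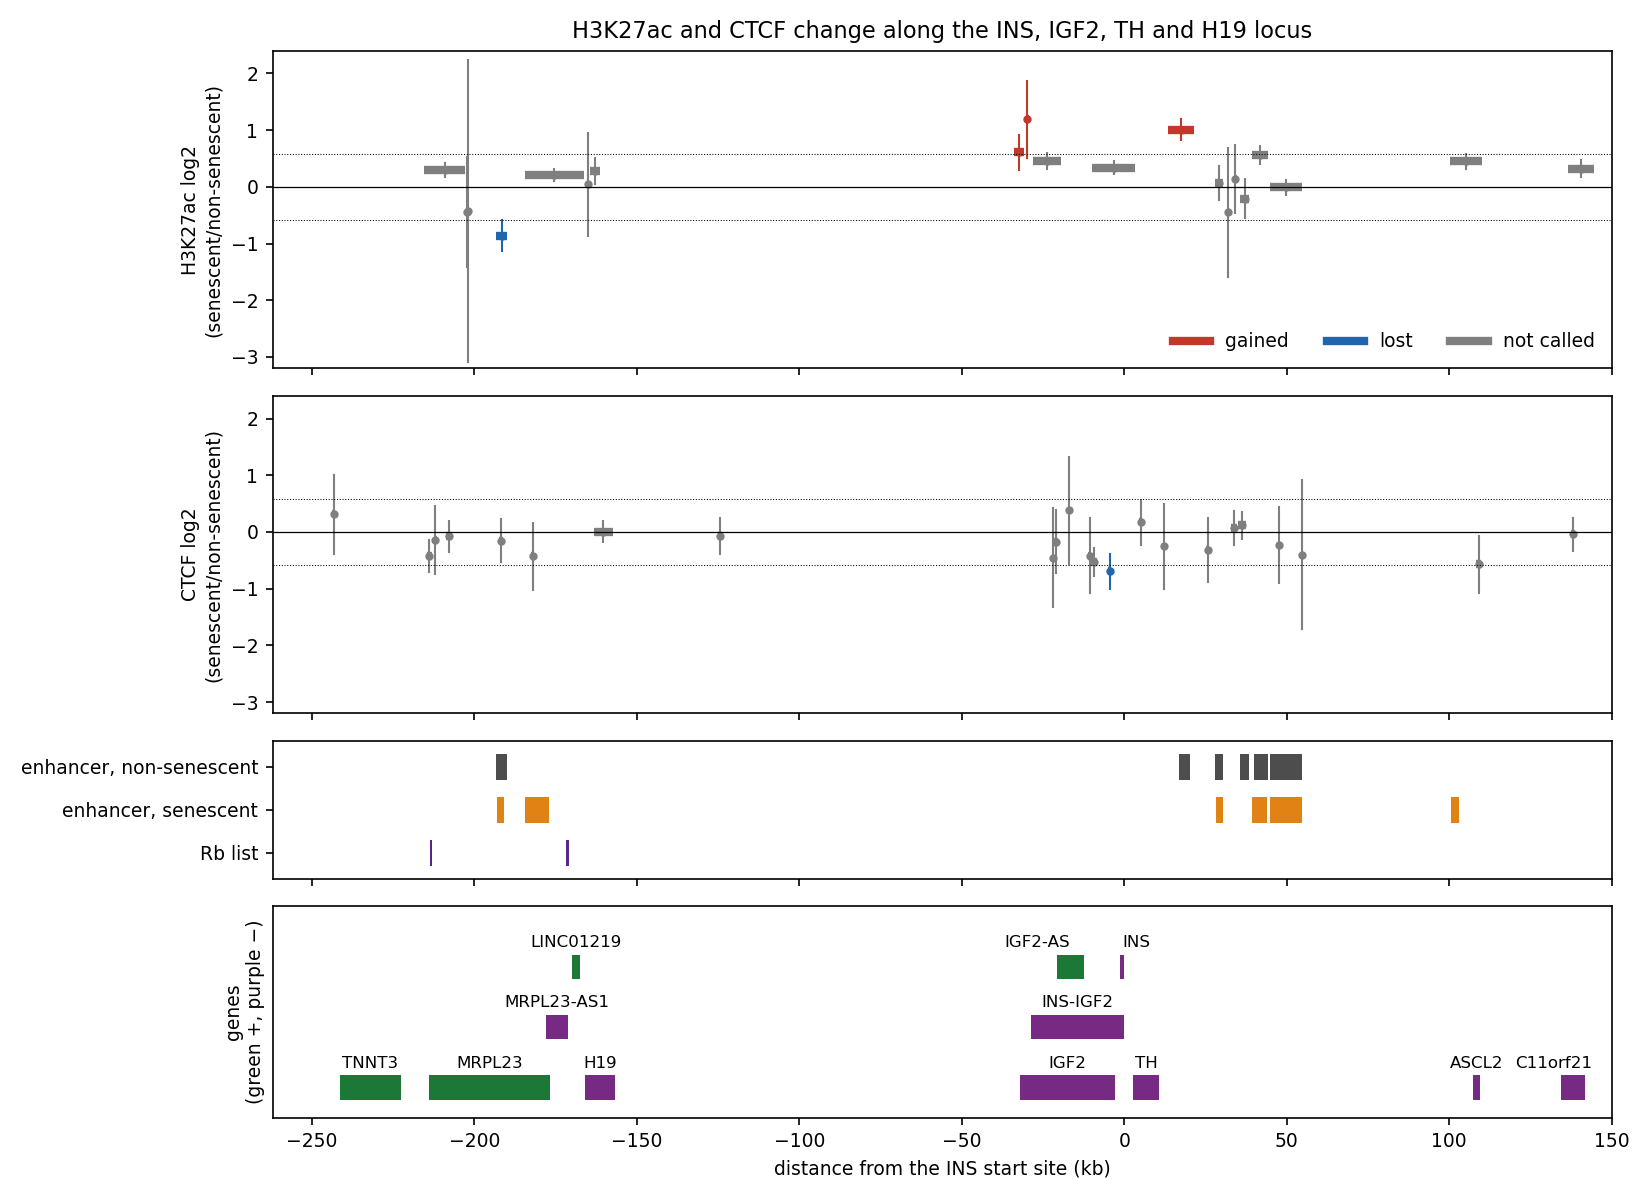
Log2 fold change (y axis, senescent over non-senescent) of H3K27ac and CTCF peaks against distance from the INS start site in kb, with thick lines for peak extent, thin lines for 95% intervals, dotted lines at a fold change of 1.5, and the listed regions and genes below. The 3 gained H3K27ac peaks lie at the end of IGF2 and upstream of TH, the lost one inside MRPL23, and the lost CTCF peak between INS and IGF2.

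The tables hold no value for single libraries. The mean normalized count over the 6 libraries is therefore given with the level it implies in each state when the fold change is applied to equal groups, and the error with the log2 fold change. Over INS, the mean count of H3K27ac peak 11 (chr11:2151199-2164559, 13361 bp) was 3078, which implies 2714 in non-senescent and 3442 in senescent cells. This broad peak ran from the introns of IGF2 across the whole of INS to the end of TH and covered all 5 annotated INS start positions and 2 of 10 IGF2 start positions. Its H3K27ac log2 fold change was 0.34 with a standard error of 0.059, a 95% interval of 0.23 to 0.46 and an adjusted p of 6.14e-08. The mark over INS was 1.27-fold higher in senescent cells, under the limit for a gain. In counts the peak stood at the 98.8th percentile of all H3K27ac peaks, and in counts per kb (230.4) at the 89.9th. The value stayed between 0.20 and 0.45 under every other centring tried.

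At IGF2, H3K27ac peak 10 (chr11:2133197-2141681) covered 7 of the 10 IGF2 start positions, the canonical one among them, as well as IGF2-AS, an antisense transcript, and MIR483, a microRNA in an IGF2 intron. Its mean count was 1176, with implied levels of 993 and 1358. The log2 fold change was 0.45 (SE 0.071, 95% interval 0.31 to 0.59, adjusted p = 3.19e-09), a fold of 1.37. With the GC trend removed it was 0.61 and passed the fold threshold. The difference between the INS and IGF2 peaks was -0.11 with an interval of -0.29 to 0.07, so a difference between them was not detectable. The remaining IGF2 start position lay under no H3K27ac peak.

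The end of IGF2 carried gained peaks. H3K27ac peak 8 (chr11:2127386-2130468, over exons at the end of IGF2) had a mean count of 164 and implied levels of 129.7 and 198. Its log2 fold change was 0.61 (SE 0.16, 95% interval 0.30 to 0.92, adjusted p = 5.27e-04), only just above the fold threshold. Centring on peaks within 1 Mb gave 0.47 (adjusted p = 0.00918), under the fold threshold, and the call was lost. H3K27ac peak 9 (chr11:2130887-2131740, over IGF2 exons) was small, with a mean count of 33.3 and implied levels of 20.3 and 46.3. Its log2 fold change of 1.19 was the highest of the locus but had a wide interval (SE 0.35, 0.51 to 1.87, adjusted p = 0.00242). Between the H19 control region and peak 8, no H3K27ac peak was found, and CTCF peak 8 lay alone at chr11:2036192-2037593.

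TH had no H3K27ac peak over any of its 6 start positions. The nearest were the INS peak, which touched the end of TH and stopped 7256 bp short of the canonical TH start site, and H3K27ac peak 12, which began 2758 bp upstream of it. Peak 12 (chr11:2174573-2182749, intergenic) was the best supported gain of the locus. Its mean count was 749, with implied levels of 497 in non-senescent and 1001 in senescent cells. The log2 fold change was 1.01 (SE 0.097, 95% interval 0.82 to 1.20, adjusted p = 1.88e-23), at the 95.7th percentile of all H3K27ac peaks. It exceeded the value at the INS peak by 0.67, with an interval of 0.45 to 0.89, and its interval of difference excluded 0 against 17 of the other 19 peaks. These intervals are not corrected for the choice of a high peak. Peak 12 was also the only peak of the locus that still passed when the test was made against a fold change of 1.5.

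Farther upstream of TH, toward ASCL2, a run of H3K27ac peaks from chr11:2189179 to chr11:2215991 behaved unevenly. H3K27ac peak 17 (chr11:2200568-2205352) had a mean count of 842 and implied levels of 680.5 and 1004. Its log2 fold change of 0.56 (SE 0.081, adjusted p = 5.85e-11) was a fold of 1.48, the value nearest below the threshold. With the GC trend removed it was 0.59 (adjusted p = 5.93e-12) and passed as a gain. The adjoining peak 18 (chr11:2205899-2215991), with a mean count of 2868, had implied levels of 2874 and 2862 and a log2 fold change of -0.01 (95% interval -0.14 to 0.12). Peaks 13, 14, 15 and 16 lay between -0.45 and 0.14 with adjusted p from 0.338 to 0.779. The peak over ASCL2, a basic helix-loop-helix factor gene (H3K27ac peak 19, chr11:2261574-2271169), had a log2 fold change of 0.45 (SE 0.066, adjusted p = 2.38e-10). Peak 20, which reaches past the window over C11orf21 and TSPAN32, had 0.32 (SE 0.079).

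At H19, H3K27ac peak 7 (chr11:1996839-1999744) covered 10 of 24 annotated start positions, including the one with the most transcripts. Its mean count was 315 with implied levels of 285 and 345. The log2 fold change was 0.28 (SE 0.12, 95% interval 0.05 to 0.51, adjusted p = 0.0472). This value lost the adjusted p threshold when the fold changes were centred on peaks of like mean count (adjusted p = 0.0550) or on peaks within 1 Mb (0.367), so that result depends on the centring. The difference of INS minus H19 was 0.07, with an interval of -0.19 to 0.32.

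Beyond H19, toward MRPL23, which encodes a mitochondrial ribosomal protein, stood the strongest peaks and the only loss. H3K27ac peak 1 over the MRPL23 start sites (chr11:1945834-1958365) had a mean count of 7857 and a log2 fold change of 0.30 (SE 0.061). Peak 5 (chr11:1976652-1994911), over the end of MRPL23 and the non-coding genes MRPL23-AS1 and LINC01219, had a mean count of 5906 and a log2 fold change of 0.21 (SE 0.058). Between them, peak 4 (chr11:1967981-1971284, in an intron of a long MRPL23 transcript) had a mean count of 235 and implied levels of 303 and 167. It was lost, with a log2 fold change of -0.86 (SE 0.14, 95% interval -1.13 to -0.59, adjusted p = 6.58e-09). Its log2 fold change was the lowest of the locus, and the interval of its difference excluded 0 for 15 of the other 19 peaks. These intervals are not corrected for the choice of the lowest peak. The 3 small peaks 2, 3 and 6, with mean counts from 9.86 to 19.4, had standard errors from 0.46 to 1.4, at which no change of this size was detectable.

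**Figure D2:**
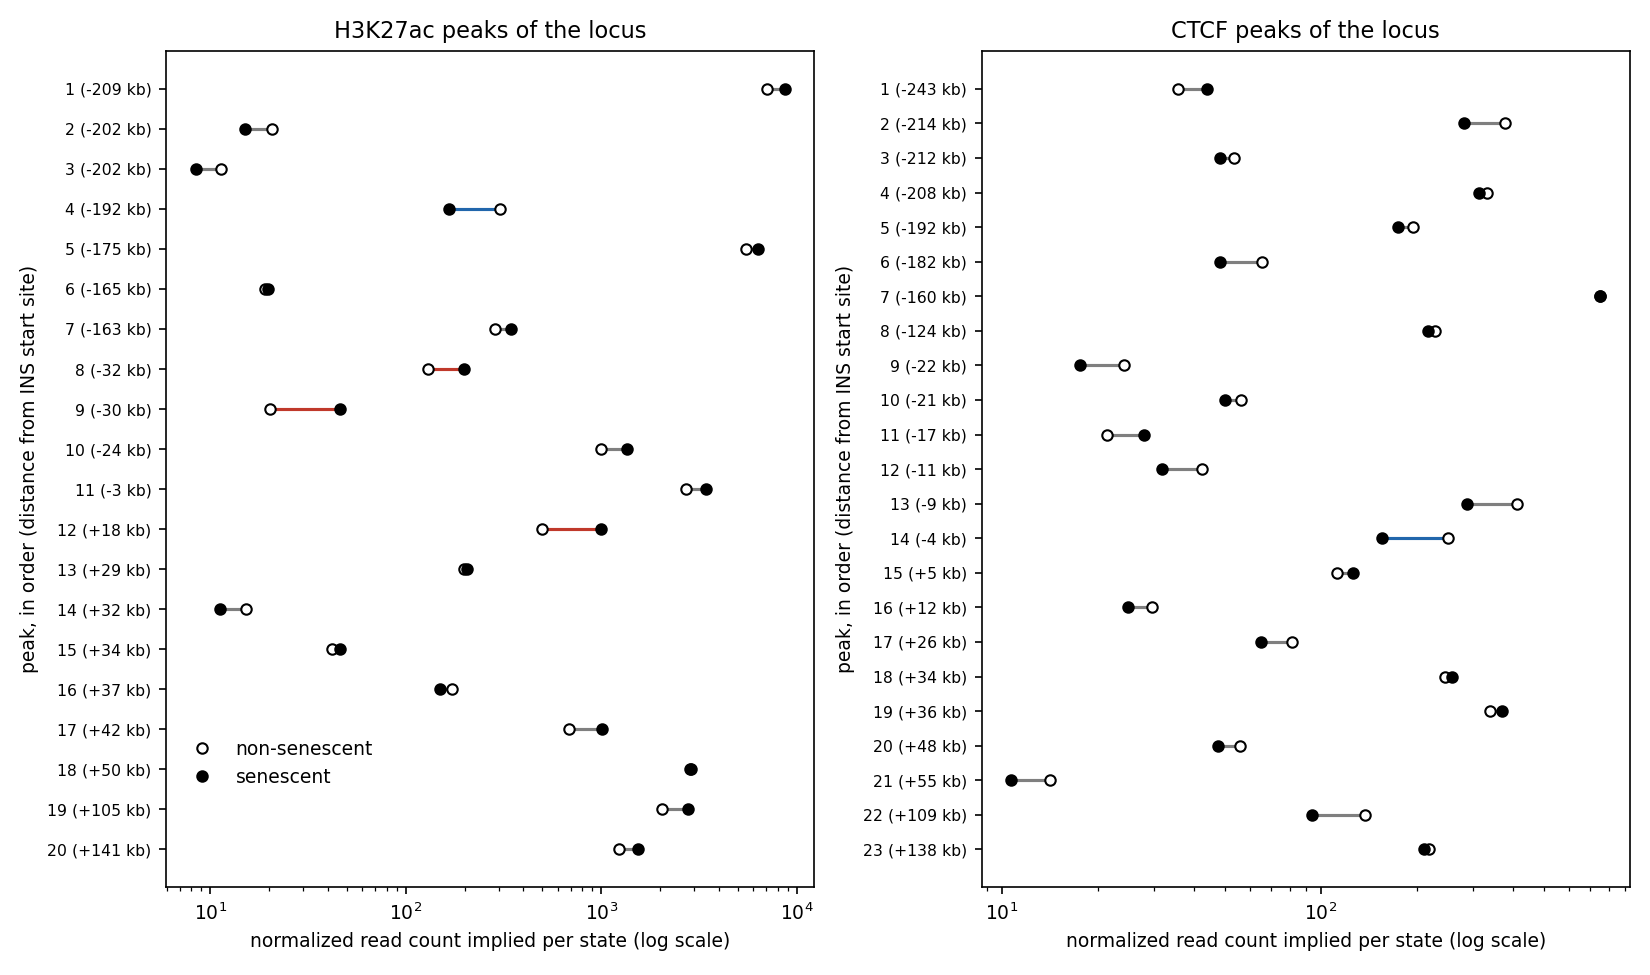
Normalized read count implied in non-senescent (open) and senescent (filled) cells for each peak (x axis, log scale) in order along the locus (y axis, with distance from the INS start site), lines coloured by call as gained (red), lost (blue) or not called (grey). The INS peak is H3K27ac 11 at 2714 and 3442, and the INS-IGF2 site is CTCF 14 at 251 and 155.

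At the thresholds of the study, CTCF was lost at 1 of 23 peaks, CTCF peak 14 in introns of IGF2 next to INS, and gained at 0. For CTCF the adjusted p had to be under 0.2, with the same fold limit. Without the fold limit 4 peaks (2, 13, 14 and 22) passed, all lower in senescent cells. Among all peaks 3.28% of CTCF peaks were lost and 2.29% gained (5.58% changed), so 1 of 23 is near the background. The median log2 fold change was -0.17 at the locus and -0.01 over all CTCF peaks, and 17 of 23 values were below 0. CTCF change followed GC content over all peaks, and the locus peaks had a median of 63.1% GC against 46.4%. At the GC contents of the locus peaks, the trend over all peaks had a median of -0.24. With that trend removed the median of the locus was 0.06, and 10 of 23 values were below 0.

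CTCF peak 14, the site printed first, had a mean count of 203 and implied levels of 251 in non-senescent and 155 in senescent cells. The log2 fold change was -0.69 (SE 0.16, 95% interval -1.0 to -0.38, adjusted p = 0.00321), the lowest of the 23 and at the 10.4th percentile of all CTCF peaks. Removing the GC trend brought it to -0.46 (adjusted p = 0.142), under a 1.5-fold change, and the call was lost. Centring on peaks within 1 Mb gave -0.55, also under the fold threshold, while centring by mean count gave -0.84. The peak is 62.8% GC.

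Its neighbour on the IGF2 side, CTCF peak 13 (chr11:2150970-2152811, also intronic to IGF2 and INS-IGF2), had a mean count of 349.9 and implied levels of 413 and 287. Its log2 fold change was -0.53 (SE 0.13, 95% interval -0.78 to -0.28, adjusted p = 0.00537), a fold of 0.693 that fell just short of the threshold. It held no exact core motif. The site closest to the motif by a matrix score lay at chr11:2151605-2151616 on the minus strand.
CTCF peak 13 site: tagaaatggCCGCCAGGTGTCagcataagg
The values at peaks 13 and 14 differed by -0.16 with an interval of -0.56 to 0.24, so a difference between these neighbours was not detectable. After removal of the GC trend peak 13 stood at -0.38 (adjusted p = 0.112).

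The H19 control region had the highest CTCF count of the locus. CTCF peak 7 had a mean count of 750.4, at the 99.5th percentile of all CTCF peaks, with implied levels of 749 and 752. At 5656 bp it was also the widest CTCF peak of the locus. In counts per kb (133) it stood at the 77.3rd percentile, below the INS-IGF2 site (191). Its log2 fold change was 0.00 (SE 0.095, 95% interval -0.18 to 0.19, adjusted p = 0.986). This interval excludes a change of 1.5-fold in either direction. The log2 fold change at the INS-IGF2 site was lower than that at the control region by 0.69, with an interval of -1.06 to -0.33. The peak sums reads over all 5 matches and both parental copies, so changes at single sites or on 1 copy cannot be told apart.

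In order from H19 to ASCL2, the other CTCF peaks of the INS side mostly had small or uncertain values. Over the IGF2 promoters, peaks 9 and 10 had mean counts of 20.9 and 53.0 and log2 fold changes of -0.46 (SE 0.45) and -0.17 (SE 0.29). Peaks 11 and 12, in IGF2 introns, had 0.39 (SE 0.48) and -0.42 (SE 0.33). On the other side of INS, peak 15 in the body of TH (chr11:2165727-2166800), over the start of a short TH transcript, had a mean count of 119 and a log2 fold change of 0.17 (SE 0.20, adjusted p = 0.678). It carried a core motif on the plus strand at its centre.
TH CTCF site (chr11:2166281-2166292, plus strand): cccaggtagCCGGCAGGTGGCagcacaggc
The TH and INS-IGF2 sites, which flank INS, thus held cores on opposite strands, both pointing away from INS. Whether either site anchors a loop was not tested. The CTCF log2 fold change at the INS-IGF2 site was lower than that at the TH site by 0.86 (interval -1.37 to -0.35). Peak 16 at MIR4686, 1185 bp upstream of the TH start site, had -0.25 (SE 0.38).

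Among the enhancers upstream of TH, CTCF peaks 18 and 19 had mean counts of 251 and 355 and log2 fold changes of 0.07 (SE 0.15) and 0.12 (SE 0.12). Neither held an exact core motif. CTCF peak 22 over the ASCL2 start site had -0.57 (SE 0.25, adjusted p just under 0.2), a fold of 0.676 just short of the threshold, and -0.19 with the GC trend removed. CTCF peak 2 over the MRPL23 start sites had -0.42 (SE 0.14, adjusted p = 0.0661), and -0.02 with the trend removed. It is 74.7% GC. The 10 CTCF peaks not yet given (1, 3, 4, 5, 6, 8, 17, 20, 21 and 23) had log2 fold changes from -0.43 to 0.31 and adjusted p from 0.441 to 0.904, apart from peak 21, which had none. The INS-IGF2 site had the lowest log2 fold change of the 23, and the interval of its difference excluded 0 for 10 of the other 22. These intervals are not corrected for the choice of the lowest peak. The core motif was present in 13 of the 23 peaks, against 38.3% of all CTCF peaks and 9.30% of shifted regions.

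**Figure D3:**
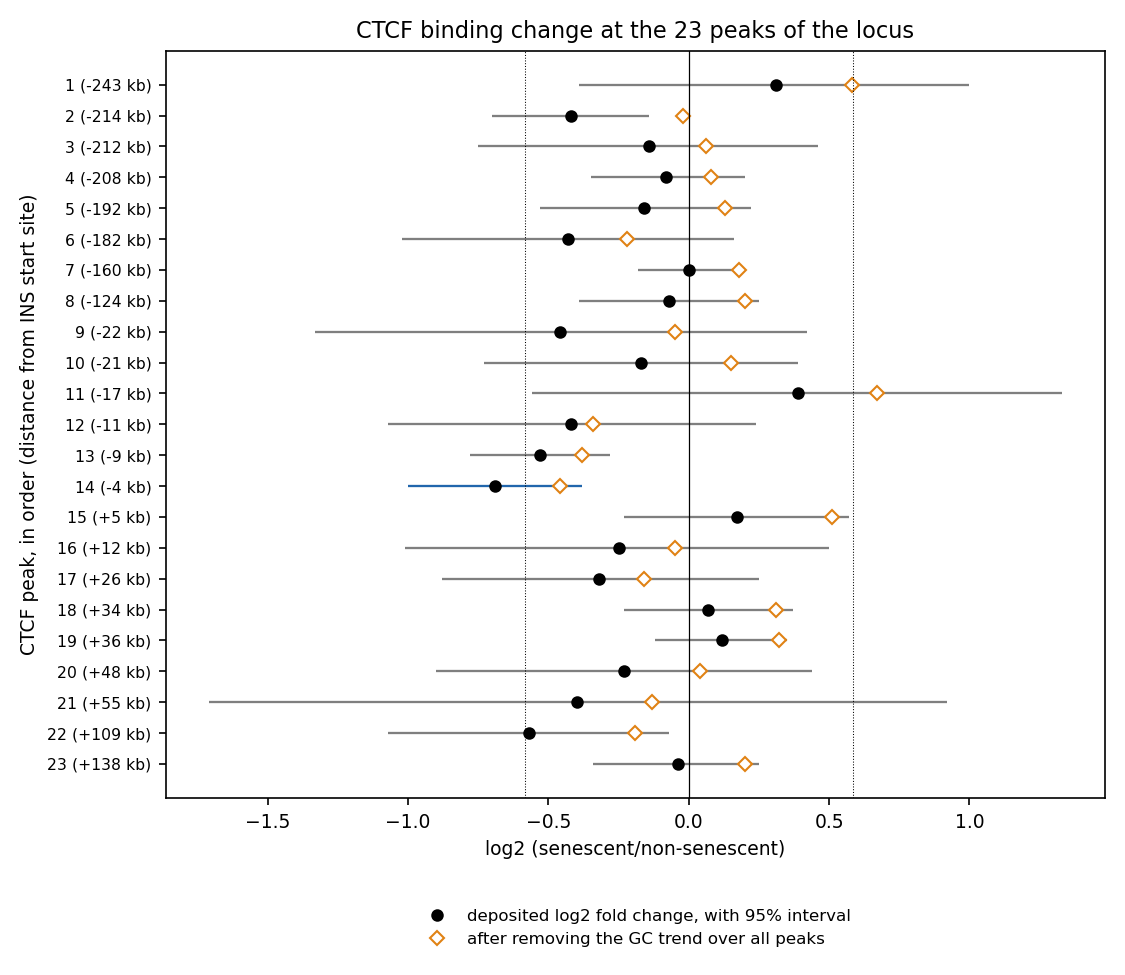
Log2 fold change of CTCF binding (x axis) at the 23 peaks in order along the locus (y axis), as deposited with 95% intervals (filled) and after removal of the GC trend over all peaks (open), with dotted lines at a fold change of 1.5. Peak 14, between INS and IGF2, moves from -0.69 to -0.46, inside the threshold.

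**Figure D4:**
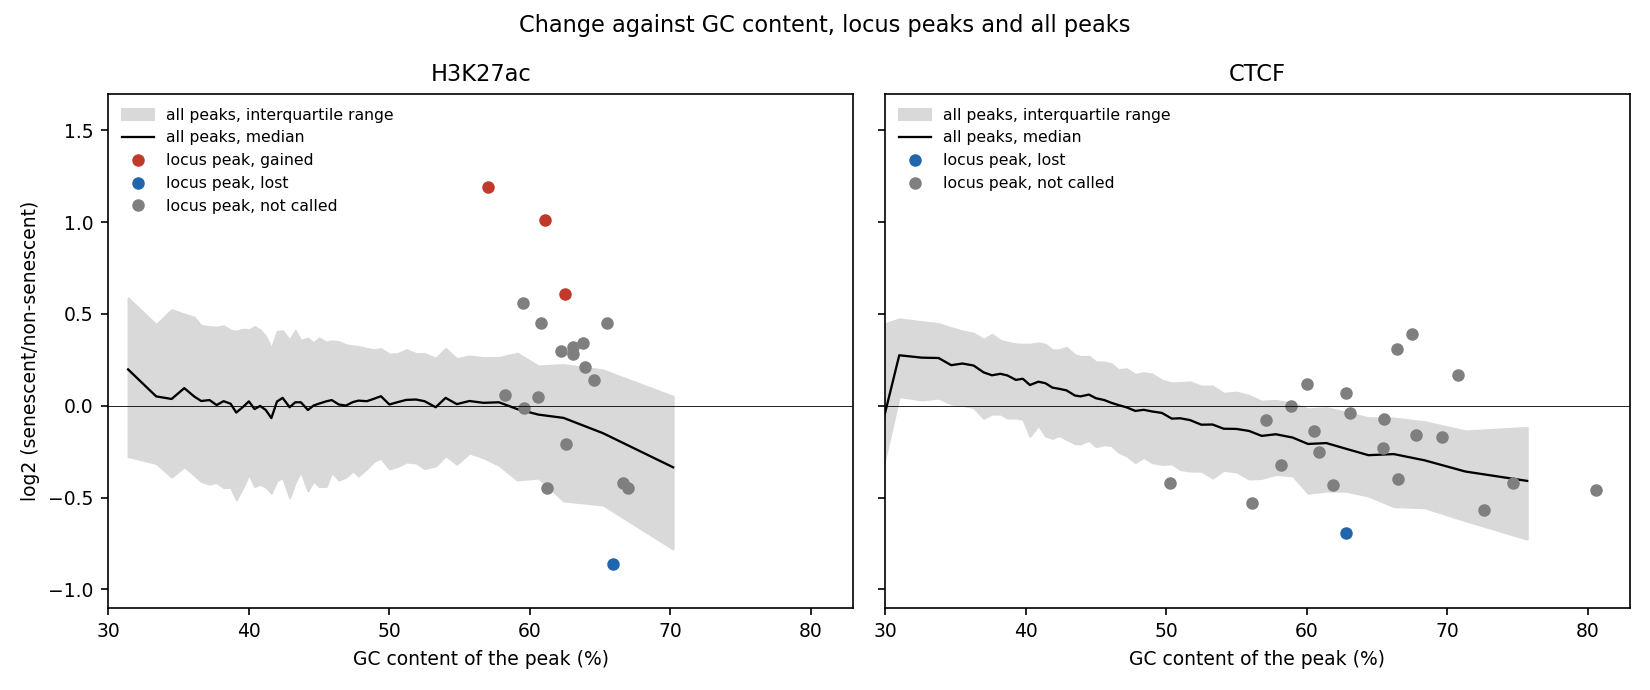
Log2 fold change (y axis) against GC content of the peak in percent (x axis) for the locus peaks (points, coloured by call), with the median (line) and interquartile range (grey) of all peaks in bins of equal number, for H3K27ac (left) and CTCF (right). The locus peaks lie at the GC-rich end, where the CTCF median falls below 0, and the gained H3K27ac peaks lie above the grey band.

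The marks were also read together. Of the 23 CTCF peaks, 16 overlapped an H3K27ac peak and 7 did not. In 11 of these 16 pairs the fold changes had opposite signs, with H3K27ac above 0 and CTCF below 0 in all but 1 of the 11. The INS H3K27ac peak overlapped CTCF peaks 13 and 14, at 0.34 against -0.53 and -0.69. The lost H3K27ac peak 4 contained CTCF peak 5, at -0.86 against -0.16. Most H3K27ac values of the locus were above 0 (14 of 20) and most CTCF values below 0 (17 of 23), so opposite signs are common in any pairing of them. The shares of overlapping peaks and of opposite signs were not computed over the series. The 16 pairs lie on 11 H3K27ac peaks, and with the GC trend removed fewer CTCF values were below 0 (10 of 23), so the count is a description alone.

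The deposited enhancers are regions with both H3K27ac and H3K4me1 outside promoters. None overlapped INS, IGF2, TH or H19, and 8 of the 20 H3K27ac peaks overlapped at least 1. Of the 6 enhancers listed in non-senescent cells, 4 had a counterpart in the senescent list, and of the 6 listed in senescent cells, 4 did. Neither share was computed over the series, so these counts are a description alone. Over the series, 4291 of 51489 H3K27ac peaks overlapped enhancers listed in non-senescent cells alone, and 2623 those listed in senescent cells alone. The enhancer at chr11:2177989-2181349, listed in non-senescent cells alone, lay inside H3K27ac peak 12, the 2.01-fold gain upstream of TH. It covers 41.1% of that peak, while the fold change is over the whole peak, and with 50% or more of a peak required peak 12 lay in no listed enhancer. Over the series 2.07% of H3K27ac peaks in enhancers of this kind were gained and 45.7% lost. The lists of both states were drawn from the same H3K27ac libraries as the fold changes. Such shares, here and for the senescent list below, were thus partly fixed in advance. The other enhancer listed in non-senescent cells alone (chr11:2196783-2199677, H3K27ac peak 16) had a log2 fold change of -0.21 (SE 0.17, adjusted p = 0.338). In senescent cells alone, the enhancers at chr11:1976721-1984200 (peak 5, MRPL23) and chr11:2261739-2264354 (peak 19, beyond the end of ASCL2) were listed. The log2 fold changes of these peaks were 0.21 and 0.45 and were not called. The enhancers cover 41.0% of peak 5 and 27.3% of peak 19, while the fold changes are over the whole peaks, which also hold start sites. For enhancers of that kind, 45.7% of the peaks in the series gained the mark and 2.10% lost it. The lists hold no level of H3K4me1, so its part in the listing was not tested.

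Rb, the retinoblastoma protein that represses E2F target genes, was listed as bound specifically in senescent cells at 2 regions, neither near INS, IGF2 or TH. The region at chr11:1947434-1948112 lay at the MRPL23 start sites under H3K27ac peak 1 and CTCF peak 2. The region at chr11:1989538-1989800 lay near the start of MRPL23-AS1 under H3K27ac peak 5.

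Genes that act with those of the locus are set beside it by promoter H3K27ac, with 4.53% of all promoter peaks gained and 9.81% lost. Of the 12 regulators of INS transcription, all with a promoter peak, 0 were gained and 0 lost, with a median log2 fold change of -0.03. ISL1, a LIM-homeodomain factor of islet cells, had 0.50 (adjusted p = 4.76e-22), PDX1, the main homeodomain activator of INS, 0.29 (adjusted p = 4.08e-08), and the rest lay between -0.13 and 0.12. Among the rest, MAFA had a small promoter peak (mean count 43.6, log2 fold change -0.05, SE 0.31), at which a moderate change is not excluded. Enhancers of these genes were not read here, while the paper reports more H3K27ac at enhancers of MAFA. Of 9 genes of proinsulin processing and storage, 2 were gained and 1 was lost. SCG5, which encodes a chaperone of the prohormone convertase PCSK2, was gained at 0.80, and ERO1B, an oxidase for disulfide formation in proinsulin, at 0.74. PCSK1, the convertase that makes the initial cut in proinsulin, was lost at -1.41 (SE 0.085, adjusted p = 8.18e-59).

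Among the other islet hormone genes with a promoter H3K27ac peak (4 of 6), IAPP, which encodes the amylin co-secreted with insulin, was gained at 0.93 (SE 0.15, adjusted p = 4.33e-09). GHRL, the ghrelin gene, was lost at -1.58 (SE 0.095), and SST, the somatostatin gene, at -0.86 (SE 0.29, adjusted p = 0.00889). PYY had -0.35 (adjusted p = 0.0243), and GCG and PPY had no promoter peak. Of 13 imprinted genes outside the window, 10 had a promoter peak, 1 was gained (CDKN1C, a cyclin-dependent kinase inhibitor, 0.60, adjusted p = 1.69e-16) and 1 was lost (MEST, -0.73, adjusted p = 3.12e-10), with a median of 0.14. Receptors and mRNA-binding proteins of insulin and IGF2, genes of catecholamine synthesis that act with TH, and imprint and loop factors had 0 gained and 0 lost promoters among 4, 5 and 7 with a peak. Promoter peaks were present at all 5 beta-cell markers (INS, IAPP, PDX1, NKX6-1 and CHGA) and at 3 of 9 markers of other cells (SST, CPA1 and KRT19), while GCG, PPY, PRSS1, PTPRC, COL1A1 and PECAM1 had none. Of the 3 present, SST and KRT19, a keratin of ductal cells, were lost, KRT19 at -0.74 (SE 0.078, adjusted p = 9.47e-20), and CPA1, a pancreatic acinar protease, had 0.19 (adjusted p = 0.0172). Their part in the other changes was not tested.

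**Figure D5:**
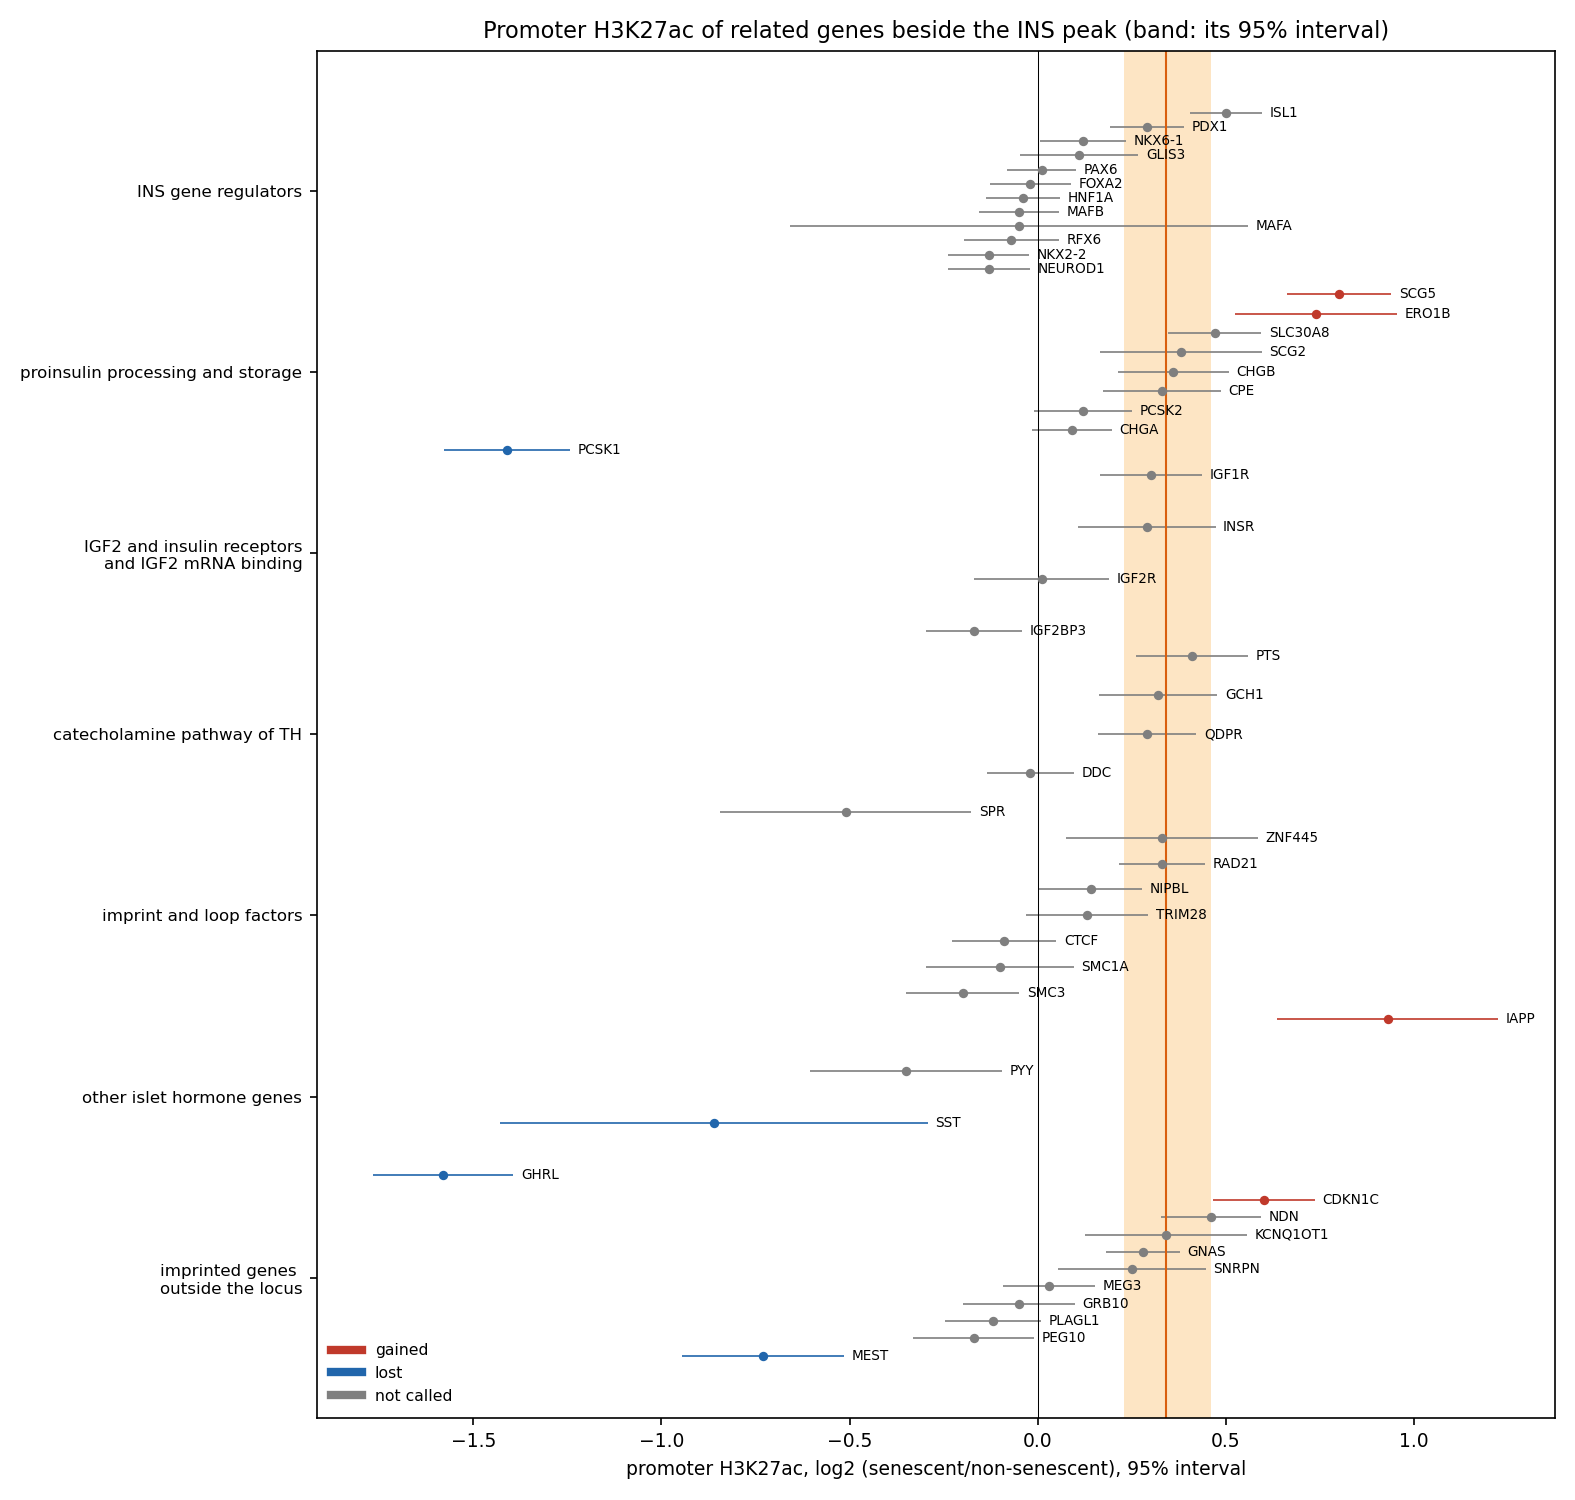
Promoter H3K27ac log2 fold change (x axis) with 95% intervals for genes grouped by list (y axis), coloured by call, beside the INS peak (orange line and band, 0.34 with its interval from 0.23 to 0.46). IAPP, SCG5 and ERO1B lie to the right of the band and PCSK1, SST and GHRL far to the left.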

How the data were processed

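As the study's methods describe, the authors aligned trimmed reads to hg38 (Trim Galore, Bowtie2), called peaks of H3K27ac by HOMER and of CTCF by MACS2, and compared raw read counts in peaks between states with DESeq2. Tool versions are not given in the sources used here. The deposited tables hold, for each peak, the authors' mean signal (counts divided by size factors, averaged over libraries), log2 fold change with its standard error, Wald score, p-value and Benjamini-Hochberg adjusted p-value. These are columns of the authors' own comparison, and they were used because no values per library were at hand. The depth of single libraries is thus unknown. No model was refitted. Because size factors scale the libraries, a change shared by most peaks is not visible. The study's own filter of CTCF peaks for a motif was not repeated, so peaks without a motif are included. An adjusted p was missing for 1 CTCF peak of the locus, which stayed uncalled. The authors' lists of enhancers and Rb regions, as deposited, hold positions only.

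Table starts were read as 0-based and are printed 1-based. All 24 chromosome names matched hg38, and 0 peaks ended beyond a chromosome. Genes, start sites and exons are from GENCODE 44. The promoter peak of a gene was that with the highest mean count within 2 kb of a start site. Intervals are 95% normal intervals from the deposited standard errors, which were taken as independent for differences between peaks, and no p was given for those. They are not corrected for the number of peaks compared. The GC trend was the median log2 fold change in 50 bins of peaks by GC content, and p-values after a change of centring were recomputed with the deposited standard errors and adjusted over all peaks. Centring on peaks within 1 Mb of the window used a set that includes the locus peaks, so it also removes part of any shift of the locus itself. The recomputation was tested on simulated data. Motifs were searched on both strands. All peaks in the window were named or summarised, with full values for those at INS, IGF2, TH and H19 and for every called peak. The annotated genes LINC01150, TNNT3 and MIR675 were not described. No genes of like pattern were sought, because the tables hold 1 contrast. The members, the gene lists and the thresholds were chosen with earlier results of these data known. Python 3 scripts used numpy, pandas and scipy.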

Additional observations from a re-analysis of the deposited data

How the results depend on the processing

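The H3K27ac calls of the locus (4 peaks) were 4 at an adjusted p under 0.2 or 0.01, 4 after centring by mean count or with peaks wholly inside the window, 3 with a mean count minimum of 50 and 6 after removal of the GC trend. They were 12 with no fold threshold, 2 above a fold change of 2 and 1 when tested against a fold change of 1.5. The CTCF call (1 peak) stayed at 1 under an adjusted p of 0.05, adjustment over all peaks, peaks of at least 50 counts, peaks inside the window and peaks with an exact core motif. It became 4 with no fold threshold, 2 after centring by mean count (with ASCL2), and 0 above a fold change of 2, against a fold change of 1.5 or after removal of the GC trend. The single values kept their direction. H3K27ac at H19 was no longer past the adjusted p threshold at 0.27 (centred by mean count) and 0.14 (centred on peaks within 1 Mb), and the cause was not tested. With 50% or more of the peak inside, 5 H3K27ac peaks rather than 8 lay in listed enhancers. With 1 mismatch allowed, 23 CTCF peaks rather than 13 held a core motif, against 90.4% of all CTCF peaks and 68.2% of shifted regions. By a matrix score 13 did, against 38.6% of all CTCF peaks, an alternative chosen after seeing the data. No value could be given for an H3K27ac peak over the TH start site. No paired analysis was possible because the tables hold no values per library, and leaving out libraries was not run for the same reason. Peaks under about 20 counts had standard errors of 0.46 or more.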

Other observations

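The regions next to the locus are set beside its median log2 fold changes of 0.24 for H3K27ac and -0.17 for CTCF. Over all H3K27ac peaks 9.47% were gained and 13.1% lost. In the 500 kb below the window, toward the chromosome end, 2 of 17 H3K27ac peaks were gained and 4 lost, with a median log2 fold change of -0.05. In the 500 kb above it, 2 of 23 were gained and 2 lost, with a median of 0.08. That stretch holds the KCNQ1OT1 promoter but not CDKN1C. No CTCF peak was called in either stretch, where 23 and 13 peaks had medians of -0.15 and -0.07. At the KCNQ1OT1 promoter, the start of the non-coding RNA of the neighbouring imprinted domain, H3K27ac had a log2 fold change of 0.34 (SE 0.11, adjusted p = 0.00868 in the deposited DESeq2 table). The 38 CTCF peaks that held the imprinting control motif had a median log2 fold change of -0.19, with 0 gained and 3 lost. Over all CTCF peaks the median was -0.01, with 2.29% gained and 3.28% lost. No GC trend was removed from these values, so the part of GC content in them was not tested.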
